A study of Homo sapiens with 8 samples.

Results

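The 9 genes described here are 7 metallothioneins (MT1E, MT1F, MT1G, MT1H, MT1M, MT1X and MT2A) and 2 zinc transporters (SLC30A1 and SLC39A10). They were taken by symbol from a table of 45961 gene numbers, of which 12449 passed a filter on low values and were tested, and all 9 passed it (1 FPKM or more on average). MT1M passed it through D3_Control, since its 6 co-culture libraries average under 1 FPKM. They were selected on the FPKM of these same 8 libraries, in view of all 6 comparisons, so levels and differences of the 9 are given as a description with no test. The 8 libraries hold messenger RNA of H9, an established cell line derived from a human embryo's pluripotent cells, and form 4 groups of 2. D1_Co, D2_Co and D3_Co are read from the titles as co-culture of days 1, 2 and 3, and D3_Control as separate culture of day 3. The labels give passages 41 to 50 for the line, and name no partner cell, no added agent and no altered allele. They describe growth without feeders on Matrigel in mTeSR1, and growth on inactivated mouse embryonic fibroblasts in a medium with FGF2 and IWR1, a WNT inhibitor, but not which library had which. How the human cells were separated before extraction is not stated by the sources at hand, nor whether the 2 libraries of a group came from separate cultures. Any p-value therefore measures the spread between these libraries, which may be technical.

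Metallothioneins are small, cysteine-rich proteins that hold zinc and copper ions in clusters of thiolates and so buffer the free metal of the cell. Their genes are induced by the zinc-sensing transcription factor MTF1, which binds short metal response elements in their promoters, and glucocorticoids and STAT3 are further known inducers. SLC30A1 (ZnT1), another MTF1 target, exports zinc across the plasma membrane, and SLC39A10 (ZIP10) brings zinc into the cytosol.

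The 7 metallothionein genes lie in a single cluster on human chromosome 16 in GENCODE 29 (GRCh38), from MT2A (chr16:56608199-56609497, plus strand) to MT1X (chr16:56682424-56684196, plus strand). MT1E (chr16:56625475-56627112), MT1M (chr16:56632233-56633986), MT1F (chr16:56657694-56660698) and MT1H (chr16:56669814-56671129) are on the plus strand too, and MT1G (chr16:56666731-56668065) is on the minus strand. SLC30A1 is on chromosome 1 (chr1:211571568-211578742, minus strand) and SLC39A10 on chromosome 2 (chr2:195575977-195737702, plus strand). RefSeq promoter windows of GRCh38.p14, 250 bases before to 50 after a gene's start, were at hand for 5 of the 9 genes. Their starts differ from the GENCODE starts above for MT2A, MT1X, SLC30A1 and SLC39A10. The MT2A bases printed below lie inside its GENCODE gene. They were searched on both strands for TGCGCNC and TGCACNC, the core letters of the metal response element. MT2A and MT1H had 8 separate matches each, MT1X had 4, SLC30A1 had 2, and of the 2 windows of SLC39A10 1 had a match and 1 had 0. Of 35116 promoters of the same length, 29.6% held at least 1 such match, 7.51% at least 2, 0.339% at least 4 and 0.0513% at least 6. The 250 bases before the RefSeq start are printed for the 4 genes with several matches, because these are the letters known for the response to zinc, with each match in capitals. They cover chr16:56608334-56608583 for MT2A, chr16:56669564-56669813 for MT1H, chr16:56682220-56682469 for MT1X (plus strand) and chr1:211579162-211579411 for SLC30A1 (minus strand), and each is written 5′ to 3′ on the gene's own strand.
MT2A: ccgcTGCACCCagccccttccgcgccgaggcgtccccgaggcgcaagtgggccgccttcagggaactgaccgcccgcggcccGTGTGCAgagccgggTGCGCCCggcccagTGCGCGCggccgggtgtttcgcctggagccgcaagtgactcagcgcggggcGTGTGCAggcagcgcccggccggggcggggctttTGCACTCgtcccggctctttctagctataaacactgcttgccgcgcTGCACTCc
MT1H: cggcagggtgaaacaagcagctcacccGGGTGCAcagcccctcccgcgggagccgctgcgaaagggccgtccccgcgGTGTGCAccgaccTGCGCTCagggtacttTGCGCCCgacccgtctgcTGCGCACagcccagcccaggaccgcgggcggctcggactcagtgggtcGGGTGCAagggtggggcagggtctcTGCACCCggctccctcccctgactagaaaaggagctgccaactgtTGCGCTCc
MT1X: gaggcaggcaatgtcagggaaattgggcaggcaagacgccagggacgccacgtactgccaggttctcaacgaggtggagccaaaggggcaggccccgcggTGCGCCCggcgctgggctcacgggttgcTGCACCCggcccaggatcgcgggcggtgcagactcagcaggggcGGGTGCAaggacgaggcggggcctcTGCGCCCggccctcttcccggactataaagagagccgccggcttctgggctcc
SLC30A1: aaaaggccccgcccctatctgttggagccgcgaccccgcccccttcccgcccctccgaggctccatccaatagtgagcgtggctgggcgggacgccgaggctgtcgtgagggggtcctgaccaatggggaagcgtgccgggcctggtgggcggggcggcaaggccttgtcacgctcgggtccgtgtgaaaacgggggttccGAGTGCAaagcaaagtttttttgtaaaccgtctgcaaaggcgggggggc
In these 250 bases MT1H had 8 matches, MT2A had 7, MT1X had 4 and SLC30A1 had 1. MT2A, MT1H and MT1X each had a match that began 53 or 54 bases before the RefSeq start (-54 in MT2A, -53 in MT1H and -53 in MT1X). A match is a description of these letters and not a bound site.

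Expression was given as FPKM, fragments scaled to transcript length and to all mapped fragments of the library, a level per length that can be set side by side between genes. Many deposited values stood on the row of another gene and were returned by a search described with the processing. Of the 63 member values in the 7 libraries searched, 9 moved, namely MT1F and MT2A in D1_Co replicate 3, MT1G in both D3_Co libraries, MT1H and MT2A in both D3_Control libraries and SLC39A10 in D3_Co replicate 1. For 45 of the 63 the row order allowed 1 value, 5 of the 9 moved ones among them. The MT1H values of D3_Control rest most on the search: its second choice put 0.009 FPKM in place of 8.62 in replicate 2, and 0 in place of 7.23 in replicate 3. The FPKM of all rows summed to between 421825 and 440675 in the 8 libraries, and read depth is unknown. All 10 markers of pluripotent stem cells had a mean of at least 1 FPKM, POU5F1 lying between 722 and 811 FPKM. Of 10 fibroblast markers 4 did, namely THY1, COL1A1, COL1A2 and PDGFRB. THY1 lay between 266 and 288 FPKM, COL1A1 between 23.1 and 42.5, and COL1A2 reached 25.1. DCN, LUM and FAP were at 0 in 8 of 8 libraries.

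The sum of the 7 metallothioneins was lower in each co-culture day than in separate culture. It was 118 and 102 FPKM in D1_Co, 150 and 148 in D2_Co, 196 and 189 in D3_Co, and 397 and 436 in D3_Control. Every co-culture library lay below both D3_Control libraries, and the 3 co-culture days did not overlap each other. The group means were 109.8 ± 11.5 FPKM in D1_Co, 148.9 ± 1.03 in D2_Co, 192.7 ± 5.07 in D3_Co and 416.7 ± 27.3 in D3_Control (SD, n = 2 each), so that the co-culture means were 26.3%, 35.7% and 46.3% of the D3_Control mean on days 1, 2 and 3. On the log2(sum + 1) scale the differences from D3_Control were -1.92, -1.48 and -1.11. Between co-culture days, D3_Co lay above D1_Co by 0.81. The comparison of D3_Co with D3_Control holds the day fixed. In those of D1_Co and D2_Co, culture and day cannot be told apart, and all 3 use the same D3_Control libraries. In bulk RNA, fewer cells with a transcript and less of it per cell cannot be told apart either. Beside these differences, the summed level of the 10 pluripotency markers was 2170 to 2202 FPKM in D1_Co, 2229 to 2298 in D2_Co, 2286 to 2348 in D3_Co and 2640 to 2723 in D3_Control. Among the 10, DNMT3B had the widest range over the 8 libraries, 270 to 663 FPKM, so the difference in this sum may rest largely on 1 gene. The 5 neural markers, 2 of which had a mean of at least 1 FPKM, summed to 512 to 540, 576 to 606 and 505 to 529 FPKM on days 1, 2 and 3 of co-culture and to 406 to 427 in D3_Control. SOX1 was at 0 in 6 of 8 libraries, and PAX6 and MAP2 stayed at or under 0.309 FPKM. NES and TUBB3 carried nearly all of the neural sum. The fibroblast sum, most of it THY1, was 308 to 315 FPKM in D1_Co, 327 to 336 in D2_Co, 340 to 345 in D3_Co and 310 to 315 in D3_Control. The endoderm sum stayed between 4.34 and 7.24 FPKM in all 8 libraries, with 2 of 9 markers at a mean of at least 1 FPKM and TTR at 0 in 8 libraries. These sums do not show that other cells were present, and their part in the metallothionein difference was not tested.

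**Figure D1:**
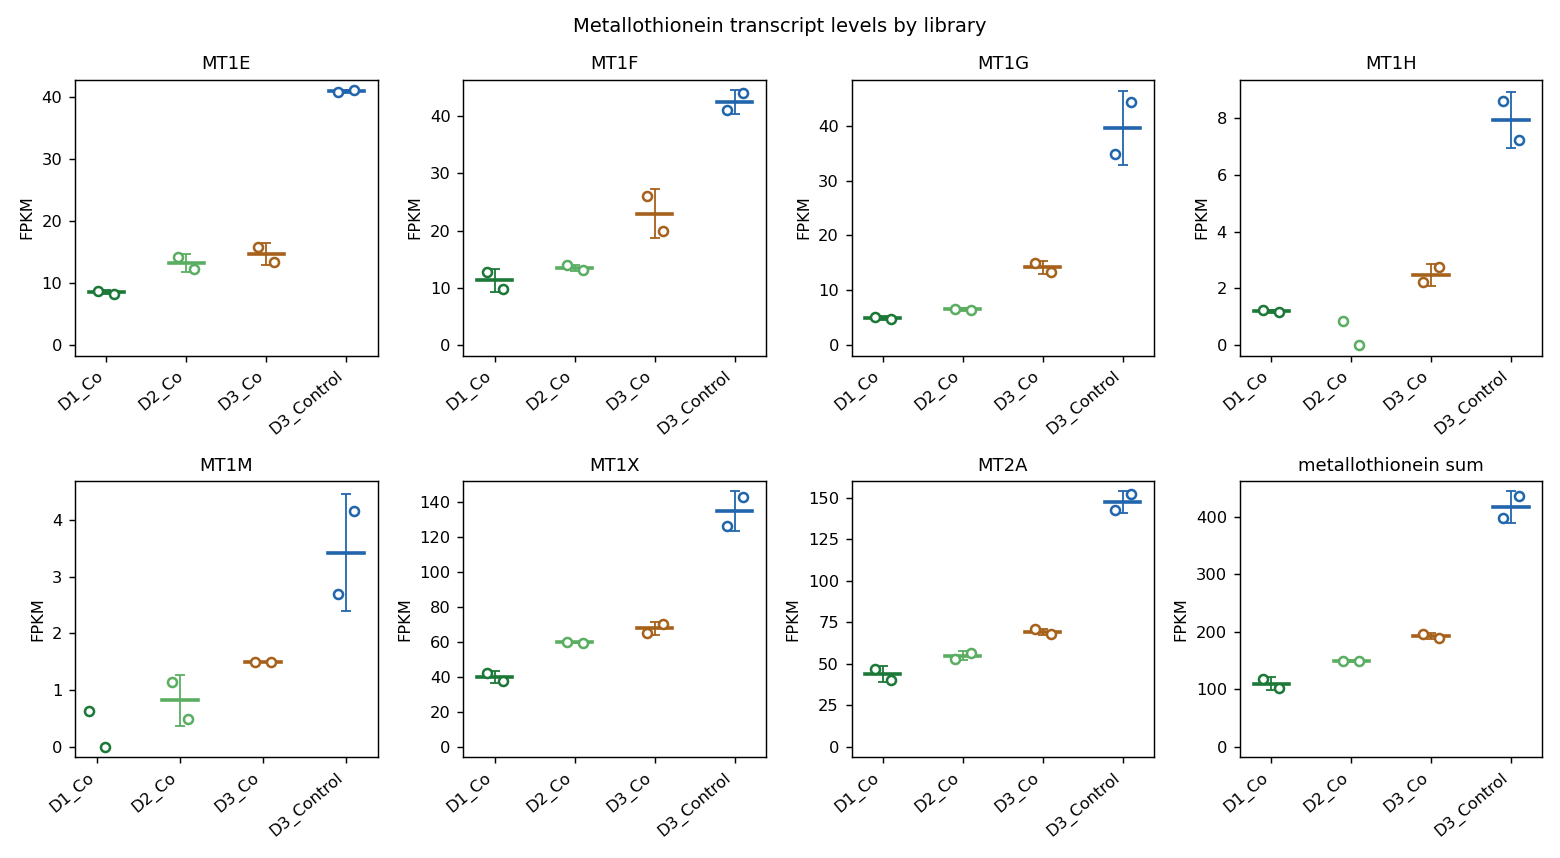
FPKM (linear axis) of each metallothionein and of their sum in each of the 8 libraries, with D1_Co, D2_Co, D3_Co and D3_Control from left to right. Circles are libraries, horizontal lines are group means and bars are SD (n = 2), left out where a library is at 0. In all 8 panels both D3_Control circles lie above all 6 co-culture circles.

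MT2A and MT1X, the 2 most abundant paralogs, carried most of the sum. MT2A was at 47.0 and 40.1 FPKM in D1_Co, 53.0 and 56.6 in D2_Co, 70.6 and 68.1 in D3_Co, and 143 and 152 in D3_Control. Its groups did not overlap, and D1_Co was lowest. Relative to D3_Control the mean was 29.5%, 37.2% and 47.0% on days 1, 2 and 3 of co-culture, and the log2 differences were -1.74, -1.41 and -1.08 (SE 0.08 each). MT1X was at 42.4 and 37.6 FPKM in D1_Co, 60.0 and 59.4 in D2_Co, 65.2 and 70.3 in D3_Co, and 127 and 143 in D3_Control. It showed the same order of days, with D2_Co close to D3_Co. Its co-culture means were 29.7%, 44.2% and 50.2% of the D3_Control mean, with log2 differences of -1.73, -1.16 and -0.98 (SE 0.08).

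MT1E, MT1F and MT1G, isoforms of the MT1 branch of the family, lay at similar levels in D3_Control and differed from each other in co-culture. MT1E was at 8.74 and 8.27 FPKM in D1_Co, 14.2 and 12.2 in D2_Co, 15.8 and 13.4 in D3_Co, and 40.7 and 41.0 in D3_Control. D2_Co and D3_Co overlapped, and their log2 difference was 0.13 ± 0.10 (SE), while all 3 days lay below D3_Control by -2.14, -1.56 and -1.43 (SE 0.10). MT1F was at 12.7 and 9.80 FPKM in D1_Co, 13.9 and 13.1 in D2_Co, 26.0 and 20.0 in D3_Co, and 41.0 and 44.0 in D3_Control. D1_Co and D2_Co were near each other and D3_Co higher, at 54.0% of the D3_Control mean, and the log2 differences from D3_Control were -1.84, -1.59 and -0.87 (SE 0.14). MT1G was at 5.12 and 4.68 FPKM in D1_Co, 6.62 and 6.33 in D2_Co, 15.1 and 13.3 in D3_Co, and 34.8 and 44.4 in D3_Control. On the log2(FPKM + 1) scale it had the widest span of the 7 from D1_Co to D3_Control (with 0.1 added in place of 1 it was -2.98, and that of MT1M -3.67), with a D1_Co mean at 12.4% of the D3_Control mean and log2 differences of -2.77, -2.43 and -1.41 (SE 0.12).

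MT1H and MT1M were the least abundant of the 7. MT1H was at 1.22 and 1.15 FPKM in D1_Co, 0.843 and 0 in D2_Co, 2.20 and 2.74 in D3_Co, and 8.62 and 7.23 in D3_Control. It is the 1 metallothionein whose lowest co-culture libraries were those of day 2, and its log2 differences were -2.02, -2.71 and -1.36 (SE 0.26). MT1M was at 0.630 and 0 FPKM in D1_Co, 1.14 and 0.496 in D2_Co, 1.490 and 1.496 in D3_Co, and 2.69 and 4.16 in D3_Control. D1_Co and D2_Co overlapped, and the log2 differences were -1.77, -1.29 and -0.81 (SE 0.28). A value listed at 0 may be a failed estimate, and the added 1 makes these differences smaller than those of the levels themselves. With 0.1 added instead, the differences of MT1H were -2.64 on day 1 and -4.70 on day 2, and that of MT1M on day 1 was -3.67.

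**Figure D2:**
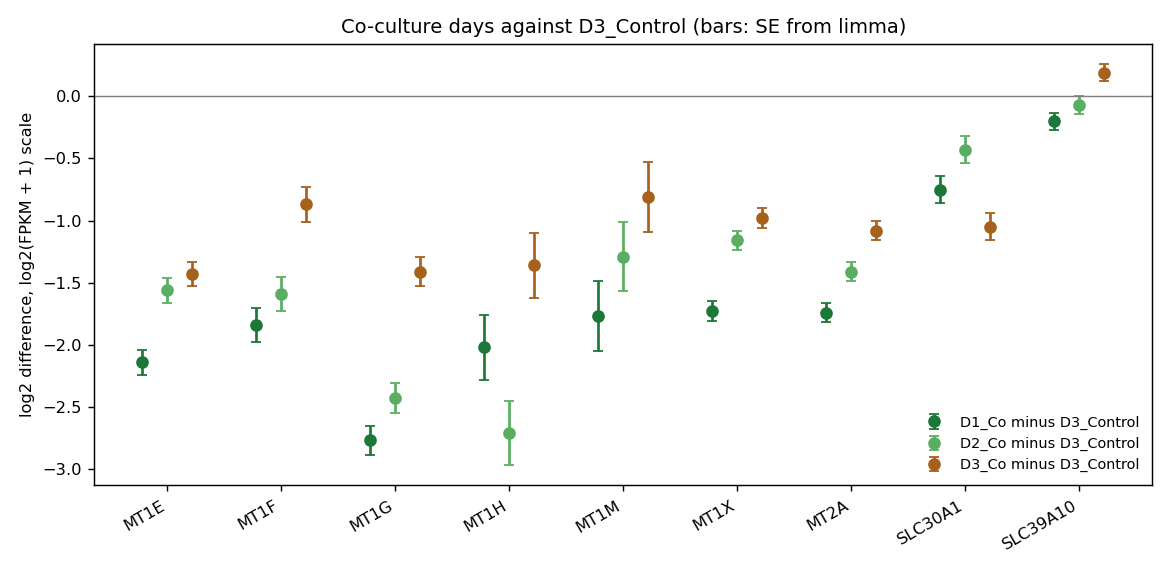
Log2 difference from D3_Control (vertical axis, log2(FPKM + 1) scale) of the 9 genes, with D1_Co, D2_Co and D3_Co from left to right for each gene and bars of 1 SE from limma. The 7 metallothioneins and SLC30A1 lie below 0 on all 3 days, from -2.77 for MT1G on day 1 to -0.43 for SLC30A1 on day 2, and SLC39A10 lies between -0.20 and 0.19.

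The 9 genes were set beside all 12449 tested genes, in which a call is a Benjamini-Hochberg adjusted p under 0.05 in limma. In D1_Co against D3_Control 8 members were called lower, where 12.2% of tested genes were called lower. In D2_Co 8 were, against 12.6%, and in D3_Co 7, against 10.8%. None of the 9 members was called higher in these 3 comparisons, where 10.5%, 12.4% and 13.5% of tested genes were. Groups did not overlap, with co-culture lower, for 9, 8 and 8 members on days 1, 2 and 3, and for 37.5%, 38.1% and 32.1% of tested genes. With co-culture higher they did not overlap for 0, 0 and 1 members, and for 27.2%, 28.1% and 33.4% of tested genes. The members were chosen with these contrasts in view, so nothing is read from the counts. The median log2 difference of the 7 metallothioneins was -1.84, -1.56 and -1.08, and that of all tested genes -0.03, -0.04 and 0.0.

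Within co-culture, which does not use D3_Control, D3_Co was set against D1_Co. The median log2 difference of the 7 metallothioneins was 0.75, against 0.03 for all tested genes. MT1G had the greatest difference of the 7 on the log2(FPKM + 1) scale (with 0.1 added MT1M had 2.56 and MT1G 1.51), with a D3_Co mean of 14.16 ± 1.24 FPKM and a D1_Co mean of 4.90 ± 0.32 (SD, n = 2 each), a log2 difference of 1.36 ± 0.12 (SE). MT2A, MT1X and MT1E differed by 0.66, 0.75 and 0.71, and MT1F by 0.97 ± 0.14. For all 7, both D3_Co libraries lay above both D1_Co libraries. Of the 9 members 7 were called, all higher, where 26.6% of tested genes were called and 16.1% were called higher. Groups did not overlap with D3_Co higher for 8 members and lower for 1, SLC30A1, against 37.5% and 29.0% of tested genes. For D3_Co against D2_Co, 4 members were called higher and SLC30A1 lower, against 8.72% and 7.21% of tested genes, and groups did not overlap for 7 with D3_Co higher and 1 lower, against 35.4% and 27.3%. For D2_Co against D1_Co 2 were called higher and 0 lower, against 4.23% and 2.87%, and groups did not overlap for 6 with D2_Co higher and 1 lower, against 30.5% and 26.5%. The members were chosen with the comparisons within co-culture in view as well, so nothing is read from these counts either.

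The make-up of the sum also differed between groups. MT1X and MT2A together made 76.2% ± 0.43 of it in D1_Co, 76.9% ± 2.0 in D2_Co, 71.1% ± 2.8 in D3_Co and 67.8% ± 0.077 in D3_Control (SD, n = 2 each). MT1G made 4.48% ± 0.18, 4.35% ± 0.11 and 7.34% ± 0.45 on days 1, 2 and 3 of co-culture and 9.47% ± 1.0 in D3_Control. The D3_Control libraries had the lowest combined share of the 2 abundant paralogs and the highest share of MT1G. These 6 shares of MT1G in co-culture, from 4.27% to 7.66%, lay below the 8.76% and 10.2% of D3_Control. MT1F, in contrast, made 11.9% ± 1.9 in D3_Co and 10.2% ± 0.17 in D3_Control, a difference within the spread of the D3_Co libraries.

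**Figure D3:**
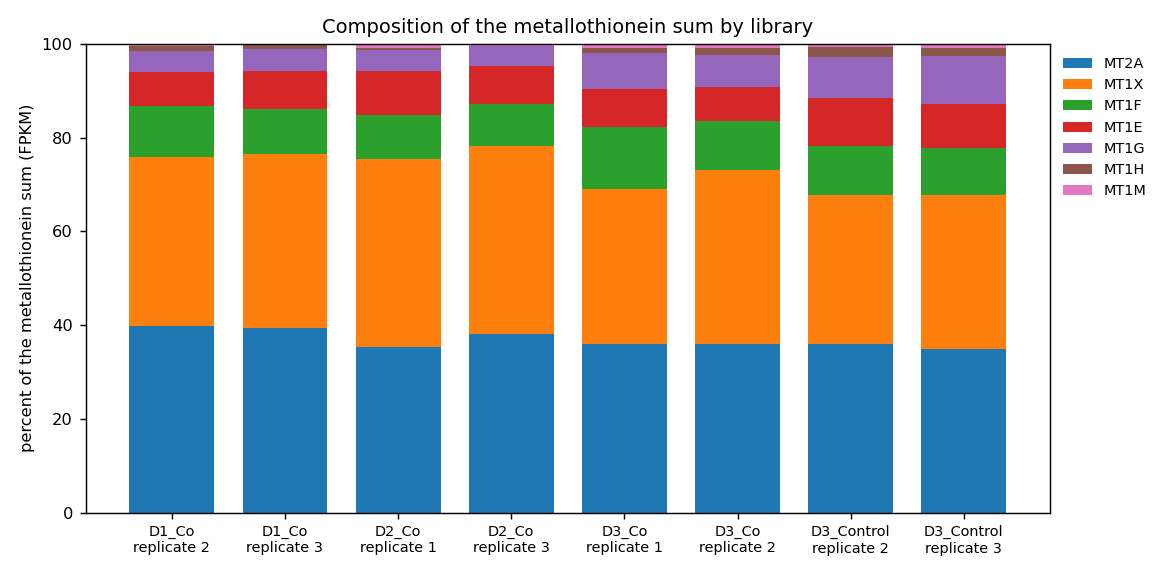
Share of the metallothionein sum (percent of FPKM, stacked) taken by each paralog in each library, from D1_Co at the left to D3_Control at the right. MT2A and MT1X fill 67.7% to 78.3% of every bar, and the MT1G band is widest in the D3_Control bars.

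The paralogs are alike in sequence, which limits how surely a read is placed. Their coding sequences are all 186 bases long, and among the 21 pairs the identity lay between 88.7% (MT1X and MT1F) and 95.2% (MT2A and MT1G). Of the 50-base windows of its GENCODE transcript, MT1X shared 45.1% with a transcript of another gene, MT1H 20.4% and MT1G 20.2%. MT2A shared 4.9%, MT1F 3.6%, MT1E 5.3% and MT1M 7.1%, while SLC30A1 and SLC39A10 shared 0%. Exons of MT1X also overlap AC026461.1 on the same strand. How reads that match several paralogs were assigned is not stated by the sources at hand, so the split between paralogs is uncertain where windows are shared. All 7 share some windows with genes outside the sum, so the sum carries the same limit. These are AC026461.1, MT1A and pseudogenes for MT1X, and MT1HL1 for MT1H. They are MT1A and pseudogenes for MT1F, MT1G and MT1M, and pseudogenes for MT1E and MT2A. The table has 9 further metallothionein rows, all low. MT1L reached 1.55 FPKM in D3_Control replicate 3 and MT1A 0.936 in D3_Control replicate 2, and MT1JP was at 0.524 and 0.491 FPKM in D3_Control and at 0 in the 6 co-culture libraries. MT1B, MT3, MT4 and MT1HL1 were listed at 0 throughout, and MT1DP and MT1IP stayed at or under 0.367 FPKM. Over the 8 libraries, the log2 levels of the 21 pairs of paralogs had Pearson correlations from 0.81 (MT1X and MT1H) to 0.99, as a description of libraries that share their groups.

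SLC30A1, the zinc exporter, was also lower in co-culture but in another order of days. It was at 6.98 and 5.80 FPKM in D1_Co, 8.04 and 8.37 in D2_Co, 5.28 and 4.70 in D3_Co, and 12.3 and 10.5 in D3_Control. D2_Co was highest of the co-culture days and D3_Co lowest, and no 2 groups overlapped. The means were 56.0%, 71.9% and 43.7% of the D3_Control mean of 11.41 ± 1.26 FPKM (SD, n = 2), with log2 differences of -0.75, -0.43 and -1.05 (SE 0.11). Between co-culture days the differences were 0.32 for D2_Co minus D1_Co, -0.62 for D3_Co minus D2_Co and -0.30 for D3_Co minus D1_Co. Where the metallothionein sum was higher in D3_Co than in D2_Co by 0.37, SLC30A1 was thus lower. Its Pearson correlations with the 7 metallothioneins over the 8 libraries were 0.43 to 0.73.

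SLC39A10, the importer, differed less between groups than the genes above. It was at 23.5 and 21.6 FPKM in D1_Co, 26.0 and 23.4 in D2_Co, 31.0 and 28.7 in D3_Co, and 26.4 and 25.7 in D3_Control. D3_Co was highest, D1_Co lowest, and D2_Co overlapped both D1_Co and D3_Control. The log2 differences from D3_Control were -0.20, -0.07 and 0.19 (SE 0.07), and D3_Co lay above D1_Co by 0.39. It was 1 of the members called higher in D3_Co against D1_Co, and it was called in none of the 3 comparisons with D3_Control. In D3_Co the mean of the importer was 115% of that in D3_Control, while those of the exporter and of the metallothionein sum were 43.7% and 46.3%. The D3_Co value of replicate 1 is 1 of those moved, and it stood at 4.98 FPKM as deposited, where the row order allowed only 31.0.

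**Figure D4:**
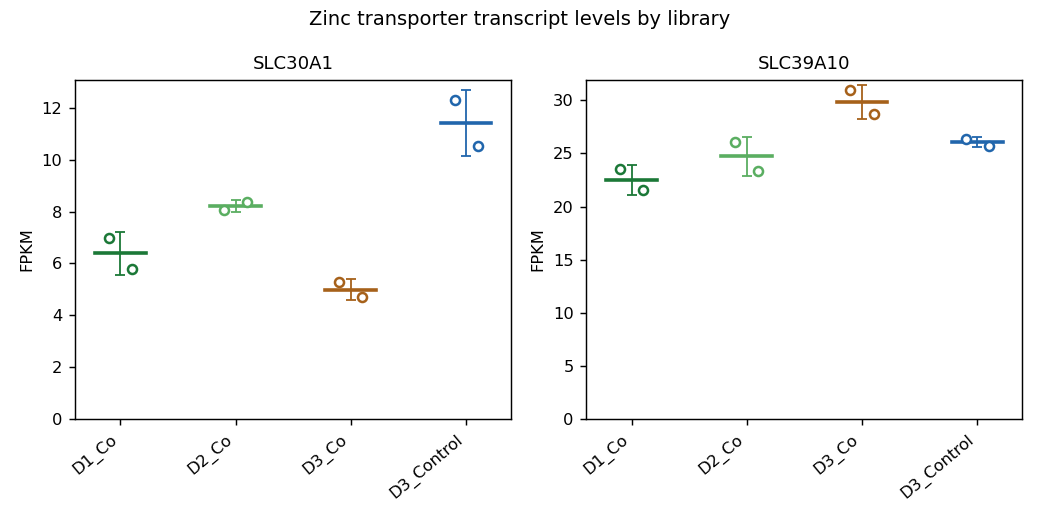
FPKM (linear axis from 0) of SLC30A1 and SLC39A10 in each library, with D1_Co, D2_Co, D3_Co and D3_Control from left to right, group means as lines and SD as bars (n = 2). SLC30A1 lies at 4.70 to 8.37 in co-culture and at 10.5 and 12.3 in D3_Control, and SLC39A10 lies at 21.6 to 31.0 in all 8 libraries.

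The remaining genes of zinc transport were measured for comparison with a list of 25, of which 16 passed the filter and the other 9 had a mean under 1 FPKM. By limma with Benjamini-Hochberg adjustment over all tested genes, 2 rose and 1 fell in D1_Co against D3_Control, 1 rose and 2 fell in D2_Co, and 1 rose and 1 fell in D3_Co. Those are 18.8%, 18.8% and 12.5% of the 16, beside 22.8%, 25.0% and 24.4% of all tested genes, shares close enough that nothing is read from them, and the medians of the list were -0.05, -0.08 and -0.07. SLC39A8 (ZIP8), an importer of zinc and manganese, rose on all 3 days: its mean was 15.0 ± 0.27 FPKM in D1_Co, 13.1 ± 1.2 in D2_Co, 14.7 ± 0.38 in D3_Co and 10.96 ± 0.23 in D3_Control (SD, n = 2 each). The log2 differences were 0.42, 0.24 and 0.39, with limma adjusted p of 0.00634, 0.0488 and 0.00882. With the rows as deposited, none of these 3 calls was made (0.13, 0.04 and 0.29, limma adjusted p of 0.828, 0.984 and 0.533). Over the alternatives other than the deposited rows, to which the counts of lost calls below refer too, the D1_Co call was kept in each of 17, the D3_Co call was lost without D3_Control replicate 3 (adjusted p = 0.0514 in limma) and the D2_Co call was lost in 11 of 17, among them leaving out any library other than D2_Co replicate 3 (adjusted p up to 0.202). Exons of SLC39A8 overlap AC098487.1 on the same strand.

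SLC30A3 (ZnT3), a transporter that fills vesicles with zinc, and SLC39A1 (ZIP1), a plasma membrane importer, moved between days. SLC30A3 averaged 1.15 ± 0.065 FPKM in D1_Co, 1.80 ± 0.22 in D2_Co, 2.57 ± 0.28 in D3_Co and 1.99 ± 0.18 in D3_Control (SD, n = 2 each). It fell in D1_Co against D3_Control by 0.48 on the log2 scale (limma adjusted p = 0.0193), a call lost when any 1 library of D1_Co or D3_Control was left out (adjusted p up to 0.0927), and rose in D3_Co against D1_Co by 0.73 (adjusted p = 0.00427 in limma), a call kept in each of 16 alternatives. Its exons overlap those of DNAJC5G on the other strand. SLC39A1 was at 90.6 ± 4.1 FPKM in D1_Co and 73.8 ± 0.074 in D3_Control (SD, n = 2 each), a log2 difference of 0.29 (limma adjusted p = 0.0206), lost without D1_Co replicate 2 or without either D3_Control library (adjusted p up to 0.105). It fell in D3_Co, at 75.1 ± 6.5 FPKM, against D1_Co by 0.27 (limma adjusted p = 0.0252), a call lost in 6 of 17 alternatives, among them leaving out either D1_Co library or D3_Co replicate 1. The calls of SLC39A11 (-0.35) and SLC39A14 (-0.22) in D2_Co and of SLC39A3 (-0.27) in D3_Co had limma adjusted p of 0.033, 0.0417 and 0.0382 and were lost in 7 of 16, 10 of 18 and 9 of 17 alternatives, among them leaving out either D3_Control library (adjusted p up to 0.136, 0.189 and 0.17). The call of SLC39A11 was also lost without either D2_Co library, that of SLC39A14 without D2_Co replicate 3 or either D3_Co library, and that of SLC39A3 without either D1_Co library or D3_Co replicate 2. MTF1, the factor that binds the metal response element, was at 2.26 ± 0.10, 2.11 ± 0.20 and 2.03 ± 0.30 FPKM on days 1, 2 and 3 of co-culture and at 2.19 ± 0.23 in D3_Control (SD, n = 2 each). Its log2 differences were 0.03, -0.03 and -0.07 (SE 0.11) and it was not called. SLC30A5 and SLC30A7, which load the secretory pathway, had differences from -0.20 to -0.05, and SLC39A6 and SLC39A7 from -0.10 to 0.01, with no call. SLC39A4 had a wide spread in D3_Control (0.732 and 3.73 FPKM), which limits what could be detected for it.

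**Figure D5:**
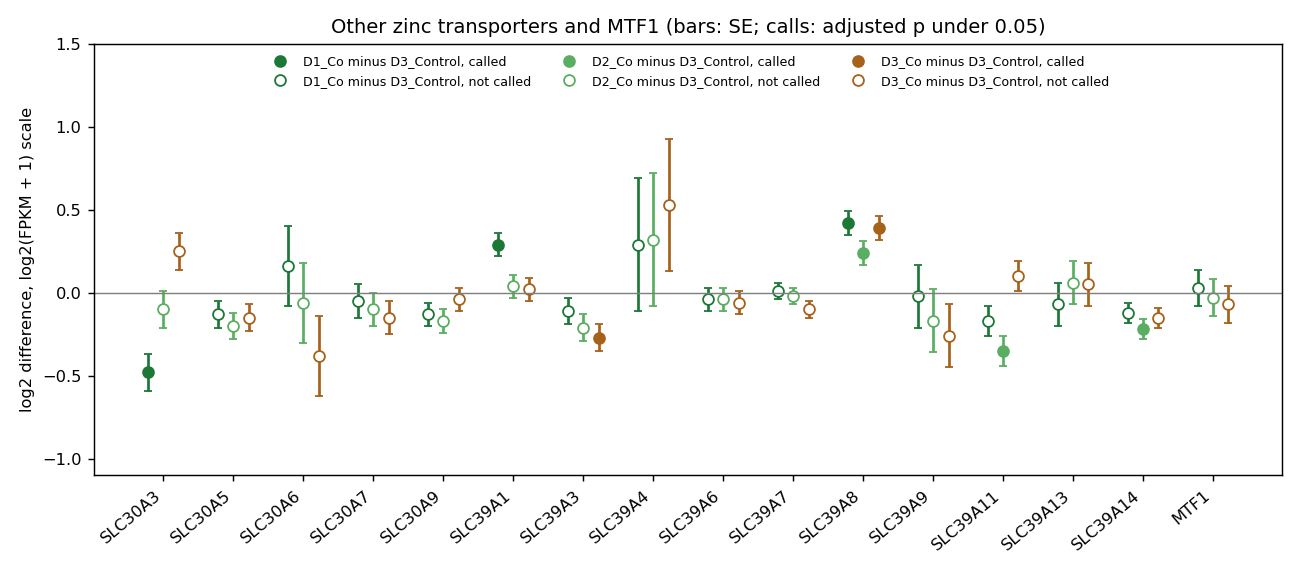
Log2 difference from D3_Control (vertical axis, log2(FPKM + 1) scale) of 15 further zinc transporters and MTF1, with D1_Co, D2_Co and D3_Co from left to right for each gene and bars of 1 SE. Filled points have a limma adjusted p under 0.05, and SLC39A8 is filled on all 3 days at 0.24 to 0.42.

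Genes of copper and iron handling and targets of other regulators that act on metallothioneins were set beside the members, with calls by limma as above. Of 13 copper genes tested, 3 rose and 1 fell in D1_Co, 2 rose and 1 fell in D2_Co, and 1 rose and 1 fell in D3_Co, each against D3_Control. These are 30.8%, 23.1% and 15.4% of the 13, beside 22.8%, 25.0% and 24.4% of all tested genes. COX11, which helps place copper in cytochrome c oxidase, was at 6.23 ± 0.0019 FPKM in D3_Co and 20.1 ± 0.79 in D3_Control (SD, n = 2 each), a log2 difference of -1.54 with a limma adjusted p of 0.000139, and its exons overlap STXBP4 and TOM1L1 on the other strand. Of 15 iron genes, 4 fell in D1_Co, 2 rose and 2 fell in D2_Co, and 5 rose in D3_Co, among them FBXL5, the iron-sensing ubiquitin ligase subunit, by 0.35 (limma adjusted p = 0.0074). The iron calls are 26.7%, 26.7% and 33.3% of the 15, beside the same 22.8%, 25.0% and 24.4%. Of 15 genes of a list for NRF2, the oxidant response factor, 5 rose in D1_Co, 3 rose and 1 fell in D2_Co, and 3 rose and 2 fell in D3_Co. These are 33.3%, 26.7% and 33.3% of the 15. Beside targets the list holds KEAP1 and NFE2L2, the gene of NRF2 itself. NFE2L2 was among those called higher in D1_Co and in D3_Co. Nothing is read from the copper, iron and NRF2 counts, which lie near the share of all tested genes. In D3_Co, SLC7A11, the cystine importer, was at 10.3 ± 0.28 FPKM against 5.39 ± 0.094 in D3_Control, and HMOX1, the heme oxygenase, at 20.7 ± 2.4 against 37.8 ± 0.92 (SD, n = 2 each). Their log2 differences of 0.83 and -0.84 had limma adjusted p of 0.000474 and 0.00112.

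Lists of the glucocorticoid receptor and of STAT3 were counted in the same way. Of 9 glucocorticoid receptor targets tested, 3 rose on each day and 1, PER1, fell in D1_Co (-0.20, limma adjusted p = 0.0469). These calls are 44.4%, 33.3% and 33.3% of the 9, beside 22.8%, 25.0% and 24.4% of all tested genes. Called higher were 10.5%, 12.4% and 13.5% of all tested genes. With 9 genes tested, nothing is read from these counts. The calls of PER1 and SGK1 on day 1 and of DUSP1 on day 2 were lost with no filter and with the replicate block. That of CEBPD on day 1 was lost without D1_Co replicate 2 and without D3_Control replicate 3. Of the glucocorticoid receptor list calls, 1, 2 and 3 on days 1, 2 and 3 were kept in all alternatives other than the deposited rows. TSC22D3, which encodes the glucocorticoid-induced leucine zipper protein, was at 17.8 ± 0.15 FPKM in D1_Co, 17.2 ± 1.8 in D2_Co, 15.2 ± 1.0 in D3_Co and 8.82 ± 0.086 in D3_Control (SD, n = 2 each), and its log2 differences of 0.93, 0.89 and 0.72 had limma adjusted p of 0.000414, 0.000474 and 0.00158. Of 10 tested genes of the STAT3 list, 8 rose in D1_Co, 7 in D2_Co and 5 in D3_Co, and the remainder were not called. Beside them, 10.5%, 12.4% and 13.5% of all tested genes were called higher. This list holds STAT3 itself and cytokine receptor genes beside targets. The receptor genes IL6ST and IL6R were among those called higher on each day. Of these STAT3 list calls, 5, 5 and 2 were kept in all alternatives other than the deposited rows. JUNB, an AP-1 subunit, was at 13.1 ± 2.7, 14.5 ± 0.53 and 11.2 ± 0.83 FPKM on days 1, 2 and 3 of co-culture and 3.09 ± 0.44 in D3_Control (SD, n = 2 each), with log2 differences of 1.78, 1.93 and 1.58 and a limma adjusted p of 0.000647 on day 3. SOCS3, the feedback inhibitor of the pathway, rose in D1_Co by 0.60 and in D2_Co by 0.69 (limma adjusted p of 0.00282 and 0.00156). In D3_Co it was at 5.72 ± 0.19 FPKM against 6.46 ± 0.43 in D3_Control (SD, n = 2 each) and was not called. The calls given for COX11, FBXL5, SLC7A11, HMOX1, TSC22D3, JUNB and SOCS3 were kept in all alternatives other than the rows as deposited. Those of NFE2L2 on days 1 and 3, of IL6R on days 1 and 2 and of IL6ST on day 3 were lost in some of them. FBXL5, SLC7A11, TSC22D3 and JUNB have exons that overlap a gene on the other strand, and without a stated use of strand the reads of such pairs cannot be told apart. The row of BCL3, 1 of the STAT3 list genes counted on each day, was unsettled by the search. With D3_Control replicate 2 as the search's closest library its calls were lost on all 3 days (limma adjusted p up to 0.957 on day 2, where the sign changed, and 0.698 on day 3). Without BCL3, 7, 6 and 4 genes of the STAT3 list were called.

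Among 463 tested genes that are no metallothioneins, have settled rows and span at least 1 log2 unit between group means, those closest to the metallothionein sum over the 8 libraries were LINGO1 (Pearson r = 0.993), PDE4B (0.991), FAM124A (0.984), TERF1 (0.982) and MEGF10 (0.982). LINGO1, a leucine-rich repeat membrane protein, was at 22.1 and 20.6 FPKM in D1_Co, 28.7 and 29.4 in D2_Co, 36.4 and 35.6 in D3_Co, and 58.7 and 59.5 in D3_Control, the same order of groups as the sum. TERF1, a protein of telomeric repeats, was at 62.3 and 61.7, 76.2 and 66.5, 98.9 and 94.4 FPKM on days 1, 2 and 3 of co-culture and at 144 and 151 in D3_Control. For SLC30A1 the closest were FOXD3 (0.911), IQSEC2 (0.901) and TNS2 (0.899), of which FOXD3 and TNS2 overlap genes on the other strand. IQSEC2 was at 7.71 and 8.47 FPKM in D1_Co, 9.48 and 9.27 in D2_Co, 6.15 and 6.41 in D3_Co, and 20.2 and 24.3 in D3_Control, with D3_Co lowest as for SLC30A1. For SLC39A10 they were CRYBG1 (0.957), CBLC (0.917) and LINC02334 (0.912), each highest in D3_Co, with CRYBG1 overlapping genes on the other strand. These correlations describe 8 libraries in 4 groups, and genes that follow the groups all correlate.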

How the data were processed

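Polyadenylated RNA of 8 H9 libraries was sequenced. Per the labels' protocols, RNA was extracted with a column kit and DNase. Alignment and quantification tools in the submitters' processing notes are HISAT2 2.1.0 and StringTie 1.3.3b, with GRCh38.p12 as the build and no settings. Values were deposited by the authors as FPKM per gene, in 8 columns over 45961 gene numbers, and each column was used. Read depth is not given, so no count test, interval or floor could be made.

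Many deposited values stood on wrong rows. The row order is that of lines of gene number and value sorted as text without a separator, under which 3394 gene numbers, those that begin a longer one, can trade places. For 7 libraries a dynamic-programming search took the allowed order closest to D1_Co replicate 2 (absolute log2 difference per row capped at 4). An allowed order existed for 7 of 7 libraries and for 0 of 7 under each of 2 control rules. Closeness to 1 library is the criterion, so differences on moved rows can be understated. Within-group correlations were 0.912 to 0.941 as deposited and 0.996 to 0.997 after the search, which the criterion itself raises. The mean over the libraries was 1 FPKM or more in 13104 rows, and 12449 of them had a name that matched their gene number in a RefSeq table and were tested. Of these, 4485 had a moved value and 295 were unsettled.

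The log2(FPKM + 1) of the deposited values, after realignment, entered a limma model (version 3.58.1, R 4.3.3) of 4 groups with a trended eBayes step (degrees of freedom 4 residual, 3.19 prior) and Benjamini-Hochberg adjustment over all tested genes. It and the search were also run on simulated data in which only some rows of D3_Co differed. That case is simpler than these data, and its outcome is not used here. 6 comparisons were made. Alternatives were the pseudocount, filters, scaling, the samples fitted, a replicate block, the row order, the paralogs summed and leaving out each library. The members and lists (zinc, copper, iron, NRF2, glucocorticoid receptor and STAT3) were chosen with earlier results of these data known. Named from a list were up to 4 called genes per comparison by size, MTF1 and 5 transporters, and the 5 or 3 genes most alike. Python 3.11.15, pandas 2.3.3 and Biopython 1.88 were used for the rest.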

Additional observations from a re-analysis of the deposited data

How the results depend on the processing

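The 7 metallothioneins and SLC30A1 lay below D3_Control in 136 of 136 values in each of the 3 comparisons with it, over the alternatives other than the rows as deposited, and SLC39A10 in D3_Co lay above it in 18 of 18. Most of these settings could not change a sign. Filters, other settings of the search and leaving out a library of another group do not alter a member's difference of group means. Groups that do not overlap also keep their order without 1 of their libraries, so nothing is read from these counts. With the rows as deposited, without the search, the sum differed by -1.73, -0.80 and -0.54 in D1_Co, D2_Co and D3_Co from D3_Control and by 1.18 between D3_Co and D1_Co. Directions then reversed for MT2A (2.79, 5.80 and 6.14) and MT1H (1.12, 0.43 and 1.78) against D3_Control, and for MT1G in D3_Co against D2_Co (-2.90) and D1_Co (-2.56). SLC39A10 in D3_Co reversed too, against D3_Control (-1.02), D2_Co (-0.95) and D1_Co (-0.82). The moved values then stand on other rows. Without the most abundant paralog the sum differed by -2.01 in D1_Co. Leaving out 1 library each moved the sum's differences to between -2.02 and -1.81, -1.54 and -1.41, -1.17 and -1.04 from D3_Control, and 0.70 and 0.92 between D3_Co and D1_Co. The numbers of tested genes called were 2835, 3117 and 3032 in D1_Co, D2_Co and D3_Co against D3_Control, 883 in D2_Co against D1_Co, 1984 in D3_Co against D2_Co and 3310 in D3_Co against D1_Co. Without 1 library they were 1355 to 2611, 1496 to 2893, 1603 to 2845, 67 to 667, 475 to 1680 and 1673 to 3009, lowest for the first 3 without D3_Control replicate 3, then without D2_Co replicate 3, D3_Co replicate 1 and D3_Co replicate 2. With the replicate block, 2076 were called in D2_Co and 1819 in D3_Co against D3_Control, 101 in D2_Co against D1_Co, 720 in D3_Co against D2_Co and 1934 in D3_Co against D1_Co. Libraries with the same number in 2 groups deviated from their group means with correlations from -0.031 (D1_Co and D3_Co replicate 2) to 0.043 (D2_Co and D3_Co replicate 1). No pairing by number was seen, but with 2 libraries a group these values cannot exclude a shared culture or batch. With only the 2 groups compared, 154 were called in D2_Co against D1_Co and 1033 in D3_Co against D2_Co, and with no filter 344 in D2_Co against D1_Co. Median-of-ratios scaling changed the split of higher to lower calls from 1311 and 1524 to 1638 and 1070 in D1_Co, from 1544 and 1573 to 1647 and 1073 in D2_Co and from 1684 and 1348 to 1513 and 1522 in D3_Co against D3_Control, from 1086 and 898 to 697 and 1249 in D3_Co against D2_Co, and from 2003 and 1307 to 1474 and 2105 in D3_Co against D1_Co. With only the 5878 tested rows of 1 allowed placement, an alternative chosen after seeing the data, 1237, 1403, 1339, 367, 860 and 1468 genes were called in the 6 comparisons in the order above. That alternative gives no value for the sum. Of the zinc list, 3, 3 and 2 genes were called against D3_Control on days 1, 2 and 3, and 2 in D3_Co against D1_Co. These counts became 0, 1, 0 and 0 with 1 allowed placement. On days 2 and 3 they were 1 and 1 with quantile normalization, 0 and 1 with only 2 groups, 0 and 1 with the replicate block and 0 and 0 as deposited, and D3_Co against D1_Co had 1 with quantile normalization, the block, the deposited rows or a mean of at least 5 FPKM. Without 1 library they were 1 to 3, 0 to 2, 1 to 2 and 1 to 3. The other lists had 25, 21 and 20 calls on days 1, 2 and 3 and 23 in D3_Co against D1_Co. The counts were 16 on day 1 with no filter, 15 and 13 on days 1 and 3 and 12 in D3_Co against D1_Co with the replicate block, and 14 with only 2 groups and 15 as deposited in the last. With 1 allowed placement they were 10, 9, 11 and 11, and without 1 library 9 to 22, 12 to 21, 11 to 18 and 9 to 20. The cause of changes other than fewer rows or samples was not tested. Depth is unknown, and 2 libraries a group cannot give an exact two-sided permutation p under 0.333.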
